A study of Mus musculus with 8 samples.

Results

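The comparison described here set the 4 libraries from HU210-stimulated cells against the 4 libraries from cells given the solvent, each HU210 library against the DMSO library of the same hour. Its members are the 15894 genes, of 16974 in the whole table, that were listed at all of the hours sampled, 2, 4, 6 and 8 h. Where 4 values of a gene are given, they stand in this order of hours. Of the 15894 genes, 6 were listed under a pair of gene IDs and left out, and 11306 of the remaining 15888 had a mean of at least 1 FPKM over the 8 libraries and were tested. FPKM count sequenced fragments relative to the length of the transcript and the size of the library, which gives a level that can be compared between genes. All libraries were made from Neuro-2A (N2A) cells, a mouse neuroblastoma line, that had been kept without serum for 16 h. The HU210 group received the cannabinoid 1 receptor (CB1R) agonist HU210 at 2 µM, and the control group received drug-free DMSO. Every condition was 1 library of mRNA pooled from 2 to 3 experiments, so the hours are the only repeats. An effect that differs between hours counts as spread here. Each experiment used 8 dishes, the number of conditions, so the libraries of all hours may stem from the same experiments.

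CB1R is a receptor coupled to Gi and Go proteins. When an agonist binds, the receptor lowers cyclic AMP and, in neuronal cells, passes a signal through small GTPases of the Rap and Ral families to the kinase Src and the transcription factor Stat3. MAP kinases of the ERK family are another known outlet of the receptor, and their activity switches on immediate-early genes such as Egr1 and Fos within the first hour or so. N2A cells extend neurites when the receptor is stimulated.

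Neuroblastoma identity was present in every library: 11 of 15 markers had a mean of at least 1 FPKM, among them the intermediate filament gene Prph and the transcription factor genes Phox2a and Hand2. Their summed level was 1016 to 1161 FPKM with HU210 and 971 to 1119 with DMSO. The neurofilament genes Nefl and Nefm were listed at 1 hour only, at or near 0. Of the markers of other cell types, 2 of 4 for astrocytes, 3 of 5 for microglia and 2 of 3 for endothelium were listed at any hour. For fibroblasts 3 of 5 were listed and for oligodendrocytes 3 of 4, and only listed values are summed. Markers of astrocytes summed to at most 0.768 FPKM and those of microglia to at most 0.642 FPKM in any library. Those of endothelium summed to 0.982 to 1.38 FPKM, those of fibroblasts to 2.17 to 2.45 FPKM and those of oligodendrocytes to 5.49 to 6.85 FPKM over the 8 libraries, with overlapping ranges of HU210 and DMSO for each of these types. The level of Cnr1, the gene of CB1R itself, was 15.5, 18.3, 27.9 and 20.8 FPKM with HU210 and 17.3, 27.0, 20.2 and 24.7 FPKM with DMSO. The Cnr1 ratio was below 0 at 3 hours and above 0 at 6 h, with a mean log2 ratio of -0.12 ± 0.41 (SD, n = 4 pairs) that the exact sign-flip test did not separate from 0 (two-sided p = 0.625). With 4 pairs this test cannot pass a threshold of 0.05.

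Most genes did not keep one direction over the 4 hours. A log2 ratio here is the log2 of the FPKM with 1 added in the HU210 library, minus the same for the DMSO library of that hour, and this scale understates the differences of genes with low levels. The ratio was above 0 at every hour for 509 genes (4.5% of those tested) and below 0 at every hour for 388 genes (3.43%). The commonest order of signs was another one, lower at 2 h and 4 h and higher at 6 h and 8 h, which 2835 genes showed (25.1%). The mirror order, higher at the early hours and lower at the late ones, was found for 590 genes (5.22%). Over all genes tested, the median ratio was itself -0.05, -0.08, 0.06 and 0.04. When each pair was centred on its median, 419 genes kept above 0 and 503 below, so the excess of higher over lower genes turned with the scaling. Only 216 of the 509 higher genes and 225 of the 388 lower genes kept their direction after that centring.

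**Figure D1:**
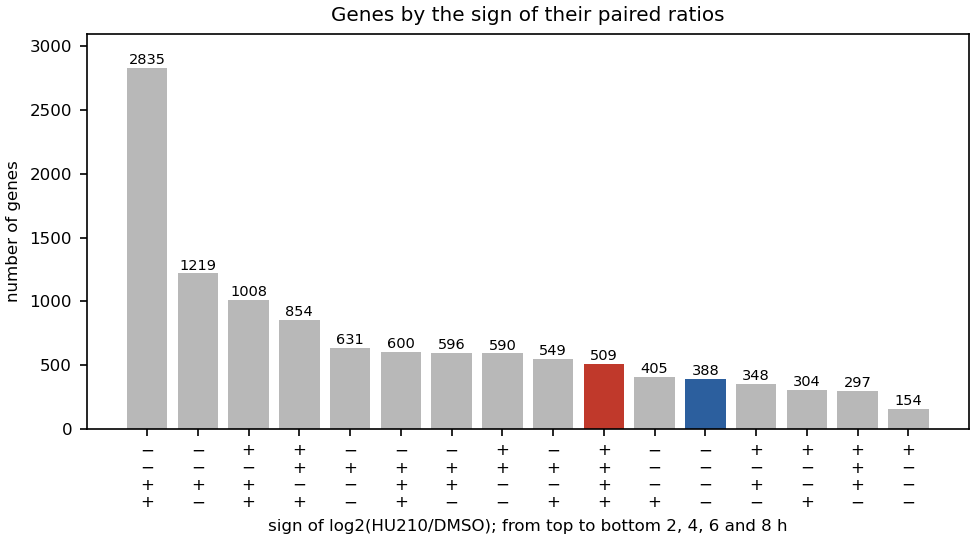
Number of genes (vertical axis) for each of the 16 orders of signs of the log2 ratio of HU210 to DMSO; the signs under each bar run from 2 h at the top to 8 h at the bottom. The 509 genes higher at every hour (red) and the 388 genes lower at every hour (blue) are fewer than the 2835 genes lower at 2 h and 4 h and higher at 6 h and 8 h.

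The 4 pairs differed in how far their genes spread. Over genes, the SD of the log2 ratio was 0.21, 0.40, 0.23 and 0.21. At 4 h, 1014 genes were at least 1.3-fold higher and 2250 at least 1.3-fold lower with HU210, whereas at 2 h these were 168 and 442 genes. Taken over genes, which are no independent replicates, the ratios of 4 h and 6 h had a Pearson r of -0.45, and those of 2 h and 4 h had an r of 0.31. Each ratio has libraries of its own, so no library is shared between these values.

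For the typical gene, the spread between hours was larger than its mean difference. The median SD of the 4 ratios was 0.19, and the median size of the mean ratio was 0.06. The median SD over the 4 DMSO libraries alone was 0.15 and over the 4 HU210 libraries 0.14. A 95% interval of the mean ratio reached 0.23 to either side at the median gene. Genes of one direction had a smaller SD of the ratios, 0.09 at the median for the higher and for the lower genes, as their selection by sign favours.

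In the paired fit with hours as blocks, no gene passed an adjusted p of 0.05 (0 of 11306, 0%). An unadjusted p under 0.05 was reached by 148 genes (1.31%), 69 higher and 79 lower. Of these 148 genes, 119 kept one direction and 29 did not. All differences given below are therefore descriptions of 8 libraries that did not pass the test, and the counts of genes in one direction are to be read beside the shares above.

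Among the 4 genes that were at least 1.3-fold apart in one direction at every hour, 1 was higher and 3 were lower. They were 0.00884% and 0.0265% of the genes tested. BC049762, a protein-coding gene known by its cDNA clone (ENSMUSG00000045942), was the higher one. Its level was 1.28, 1.04, 4.41 and 2.01 FPKM with HU210. With DMSO it was 0.373, 0.106, 1.48 and 0.305 FPKM. The 6 h libraries were the highest of both groups, and the DMSO library of 6 h lay above the HU210 libraries of 2 h and 4 h, so the groups overlapped although every pair was apart. The mean log2 ratio was 0.99 ± 0.22 (SD, n = 4 pairs; 95% interval 0.74 to 1.23), a 1.98-fold difference of the FPKM with 1 added. The FPKM themselves differed by more. The adjusted p was 0.497 in the paired limma fit and 0.229 to 1 over the alternatives. With a pseudocount of 0.1 in place of 1, the mean log2 ratio of BC049762 was 1.98. The gene lies at chr11:51067153-51076548 on the minus strand of mm9, and its exons share no base with another annotated gene.

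The promoter of BC049762 held the cyclic AMP response element TGACGTCA, the full palindrome bound by Creb factors. It is shown because BC049762 had the highest mean ratio among the higher genes that were named. The 300 bases, from RefSeq on GRCm38.p6 (a later build than that of the expression values), run from 250 bases before to 50 after the transcription start at chr11:51262955-51263254 on the minus strand, with the element in capitals. RefSeq lists another start for the gene, whose window at chr11:51263008-51263307 holds the same element right beside that start.
BC049762: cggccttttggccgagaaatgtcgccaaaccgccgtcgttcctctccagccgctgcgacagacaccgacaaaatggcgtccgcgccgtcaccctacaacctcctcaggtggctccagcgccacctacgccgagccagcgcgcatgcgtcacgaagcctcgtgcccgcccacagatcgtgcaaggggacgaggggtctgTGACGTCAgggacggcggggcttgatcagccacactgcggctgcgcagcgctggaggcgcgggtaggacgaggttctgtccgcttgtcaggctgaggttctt

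The element was found, on either strand, in the promoters of 16 of 391 genes higher at every hour (4.09%), of 13 of 294 lower genes (4.42%) and of 335 of all 8614 genes tested that had a promoter in RefSeq (3.89%). The motif TTCNNNGAA, the letters of a Stat site, was in 7.93% of the higher, 7.82% of the lower and 7.99% of all promoters. The motif GCGTGGGCG of Egr factors was in 2.3% of the higher (9 genes), 1.02% of the lower (3 genes) and 1.44% of all promoters. The shares of the element and of the Stat letters were close to those of all genes, and the Egr counts were small. These are matches of letters and not sites of binding.

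The 3 lower genes were all small guide RNAs, which direct the modification of ribosomal or spliceosomal RNA. Snora17 and Snora78 belong to the H/ACA class of nucleolar RNAs, and Scarna6 is a guide RNA of the Cajal body. Their sequences, which carry the boxes of their classes, were read from mm9. The capitals mark the ACA box near the 3′ end of the H/ACA RNAs and, in Scarna6, the letters of a C box and a D box.
Snora17: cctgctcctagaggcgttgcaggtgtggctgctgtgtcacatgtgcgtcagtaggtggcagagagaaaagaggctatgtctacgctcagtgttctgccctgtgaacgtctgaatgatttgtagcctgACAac
Snora78: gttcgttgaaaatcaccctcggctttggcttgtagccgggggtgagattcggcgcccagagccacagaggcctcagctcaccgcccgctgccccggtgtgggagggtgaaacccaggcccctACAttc
Scarna6: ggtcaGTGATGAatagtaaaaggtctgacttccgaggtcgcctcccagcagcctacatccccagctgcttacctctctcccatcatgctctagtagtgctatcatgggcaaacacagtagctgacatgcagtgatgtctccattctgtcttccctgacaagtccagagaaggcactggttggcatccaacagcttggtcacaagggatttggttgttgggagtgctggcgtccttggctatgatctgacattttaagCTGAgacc

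Scarna6 (265 bases, chr1:89681131-89681395, plus strand) was the only one of the 4 genes whose groups did not overlap. Its level was 2.19, 1.10, 1.81 and 1.49 FPKM with HU210 and 4.07, 3.07, 4.13 and 2.89 FPKM with DMSO. Every HU210 library lay below every DMSO library. The mean log2 ratio was -0.78 ± 0.15 (SD, n = 4 pairs; 95% interval -0.99 to -0.57), with an adjusted p of 0.497 in the paired limma fit and 0.406 to 1 over the alternatives. Scarna6 lies in an intron of Atg16l1, an autophagy gene of the same strand, whose mean ratio was 0.06 ± 0.06.

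Snora17 (132 bases, chr2:26494710-26494841, minus strand) was at 1.81, 1.03 and 6.98 FPKM with HU210 at 2 h, 4 h and 6 h and was listed at 0 at 8 h. The DMSO libraries were at 4.61, 6.80, 16.1 and 1.14 FPKM. The log2 ratio was -1.94 at 4 h and between -1.10 and -0.999 at the other hours. The mean log2 ratio of Snora17 was -1.28, and -2.18 with a pseudocount of 0.1. Both groups were highest at 6 h and overlapped. The whole of Snora17 lies in exon sequence of Snhg7, a host gene that was not listed in the table. The adjusted p was 0.974 in the paired limma fit and 0.0988 to 1 over the alternatives.

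Snora78 (128 bases, chr17:24856621-24856748, minus strand) was at 22.0, 7.59, 33.03 and 8.13 FPKM with HU210 and at 29.2, 13.5, 47.0 and 13.7 FPKM with DMSO. The levels of 2 h and 6 h were above those of 4 h and 8 h in both groups. The mean log2 ratio was -0.58 ± 0.17 (SD, n = 4 pairs). Its host gene Snhg9 had ratios of -0.46, -0.01, 0.81 and 0.98, and Rps2, which lies across it on the opposite strand, had ratios of 0.07, 0.53, -0.10 and -0.01. The lowest of its ratios in size, 0.39, lay just inside the limit of 0.38, and the nearest gene outside the limit was Ovgp1 with 0.36. Once the GC and length trend was taken out, the mean log2 ratio of Snora78 was -0.32 and 2 lower genes, not 3, were past 1.3-fold at every hour.

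Of 129 genes annotated as small RNAs, 2 kept above 0 (1.55%) and 9 kept below (6.98%), beside 4.5% and 3.43% of all genes. The median ratio of the class was below 0 at the early hours (-0.43 and -0.77), near 0 at 6 h (-0.04) and above 0 at 8 h (0.18). The libraries were prepared from mRNA selected by its poly(A) tail and cut by size, so RNAs of this length enter them poorly, and the part of this selection in the ratios was not tested. Among protein-coding genes, 470 of 10467 kept above 0 (4.49%) and 340 kept below (3.25%).

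**Figure D2:**
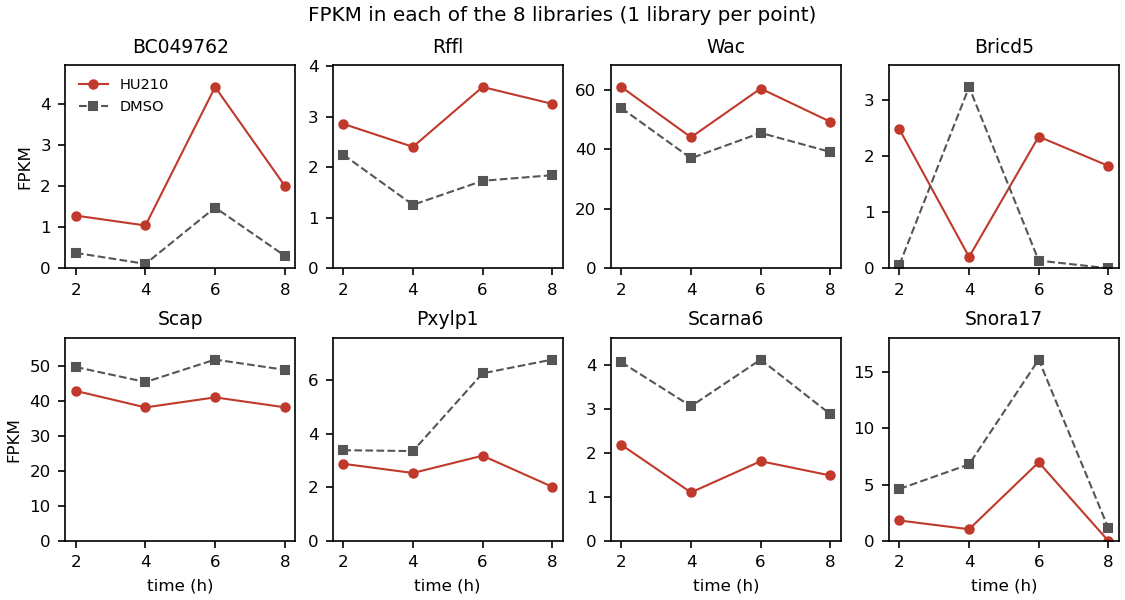
Level in FPKM (vertical axes, each with a scale of its own from 0) against time in h for 8 genes, with 1 library per point; circles are HU210 and squares are DMSO. BC049762, Rffl and Wac lie above the DMSO library at each hour and Scap, Pxylp1, Scarna6 and Snora17 below it, whereas Bricd5 is higher at 2 h, 6 h and 8 h and lower at 4 h.

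The largest moderated statistics among the higher genes belonged mostly to genes of low level. Of the 12 genes named by that rule, 10 had a mean under 5 FPKM, and the mean log2 ratio ran from 0.23 to 0.99. The groups did not overlap for 3 of the 12, namely Rffl, Ccdc116 and Tmem116. Over all genes tested, every HU210 library lay above every DMSO library for 42 genes (0.371%) and below for another 42 genes (0.371%).

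Rffl, an E3 ubiquitin ligase that acts on endosomes, was at 2.86, 2.41, 3.59 and 3.26 FPKM with HU210 and at 2.25, 1.26, 1.73 and 1.84 FPKM with DMSO. Its mean log2 ratio was 0.54 ± 0.21 (SD, n = 4 pairs; 95% interval 0.30 to 0.79). The gene shares 1826 of 5922 exon bases with Lig3 on the opposite strand, which was at 13.6 to 18.5 FPKM. The paper's materials name a stranded kit, whereas the labels list a kit for genomic DNA. Whether the strand of a read was used in mapping and counting is not given in the sources used here, and without it the reads of genes that overlap on opposite strands cannot be told apart.

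Doc2a, a calcium sensor of transmitter release, was at 3.201, 1.84, 1.73 and 1.51 FPKM with HU210 and at 1.66, 1.25, 1.31 and 0.933 FPKM with DMSO. Both groups were highest at 2 h, and they overlapped. Its mean log2 ratio was 0.41 ± 0.18 (SD, n = 4 pairs), and 951 of its 2803 exon bases are shared with Ino80e on the opposite strand. Ovgp1, a secreted glycoprotein gene of the chitinase family, had ratios of 1.08, 0.36, 0.43 and 1.14, and 1023 of its 3561 exon bases are shared with Wdr77, a gene of the same strand at 63.8 to 75.3 FPKM. Tmem116, which encodes a membrane protein, had ratios of 0.67, 0.14, 1.31 and 0.36 and shares exon bases with Mapkapk5 and Erp29. Of the 12 named higher genes 8 share exon bases with another gene, and so do 5 of the 12 named lower genes, 120 of the 509 higher genes (23.6%), 117 of the 388 lower genes (30.2%) and 2937 of all genes tested (26%).

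Wac was the higher gene of this set with the highest level. It encodes an adaptor protein that takes part in histone H2B ubiquitination and in autophagy. Its level was 60.9, 44.0, 60.4 and 49.2 FPKM with HU210 and 53.8, 37.0, 45.5 and 39.1 FPKM with DMSO. The DMSO library of 2 h lay above the HU210 libraries of 4 h and 8 h. The mean log2 ratio was 0.29 ± 0.10 (SD, n = 4 pairs; 95% interval 0.10 to 0.47), a 1.22-fold difference.

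The other named higher genes had smaller or more variable ratios. Dnase2b, an acid endonuclease gene, had ratios of 0.23, 0.49, 0.24 and 0.44, and Ccdc116, a coiled-coil protein gene, had 0.27, 0.20, 0.43 and 0.63. On the opposite strand, Ccdc116 shares 766 of 4341 exon bases with Gm15646, which was not listed. It also shares 293 there with Ydjc, which was at 13.9 to 20.3 FPKM. Mtcp1, a member of the Tcl1 family of Akt coactivators, had 0.44, 0.07, 0.27 and 0.48, and shares 1011 exon bases with another gene model of that name. Car15, a membrane-anchored carbonic anhydrase, had 0.05, 0.43, 0.26 and 0.56, and shares 1052 of 1283 exon bases with Gm20518, an unlisted gene of the same strand. Cavin3, a coat protein of caveolae, had 0.29, 0.12, 0.27 and 0.23, the ratios closest together among these genes. Tppp, a protein that promotes tubulin polymerization, was named for the size of its mean ratio (0.61), but the ratio was 1.64 at 2 h and 0.66, 0.04 and 0.09 after that. The last of the 12 was an uncharacterised locus.

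**Figure D3:**
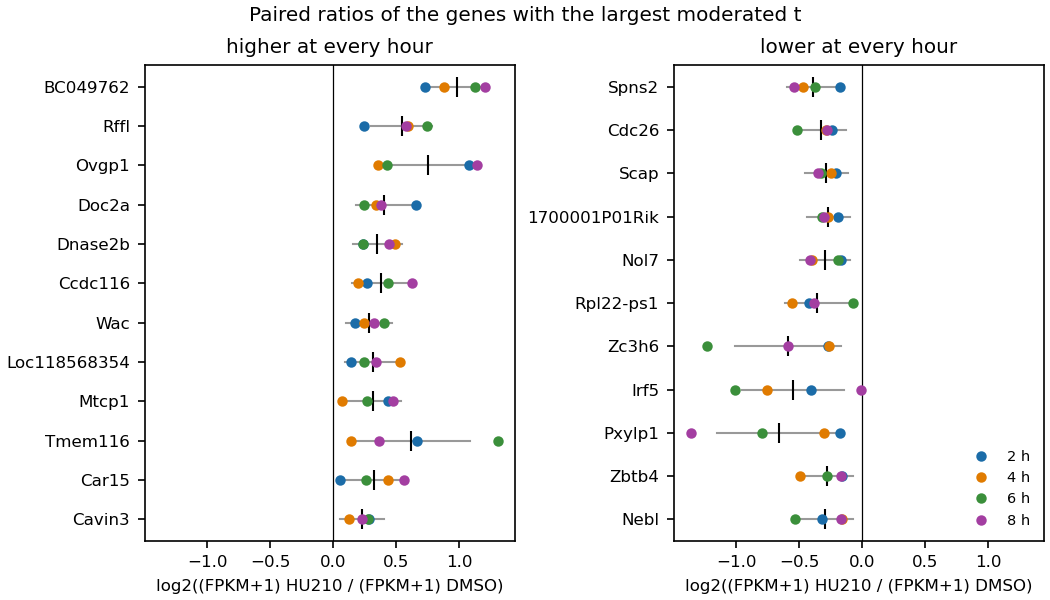
Log2 ratio of HU210 to DMSO (horizontal axes) for the 12 higher genes (left) and 11 of the 12 lower genes (right) with the largest moderated statistics; coloured points are the 4 hours, the tick is their mean and the grey line its 95% interval. BC049762 has a mean of 0.99, and the ratios of Scap lie closer together than those of Pxylp1.

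On the lower side, Scap was the clearest gene at a high level. It encodes the sterol-sensing escort protein that carries SREBP transcription factors from the endoplasmic reticulum to the Golgi. Its level was 42.8, 38.1, 41.0 and 38.2 FPKM with HU210 and 49.7, 45.4, 51.8 and 48.9 FPKM with DMSO, and the groups did not overlap. The mean log2 ratio was -0.28 ± 0.07 (SD, n = 4 pairs; 95% interval -0.46 to -0.11), with an adjusted p of 1 in the paired limma fit and 0.881 to 1 over the alternatives. The ratio was -0.21, -0.24, -0.33 and -0.35 over the hours. Scap shares 985 of 5205 exon bases with a gene on the opposite strand that was not listed in the table. None of 23 genes of sterol synthesis kept one direction, in either sense, beside 7.93% of all genes tested.

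Pxylp1, a phosphatase that acts in the synthesis of glycosaminoglycan chains, was at 2.88, 2.53, 3.18 and 2.02 FPKM with HU210 and at 3.38, 3.35, 6.25 and 6.77 FPKM with DMSO. The groups did not overlap, and the gap was wide at 6 h and 8 h and narrow before. Its mean log2 ratio was -0.66 ± 0.54 (SD, n = 4 pairs; 95% interval -1.15 to -0.17). Stk39, a kinase that regulates cation-chloride cotransporters, was the most abundant of the 6 genes with the lowest mean ratios. It was at 54.7, 55.8, 70.1 and 38.2 FPKM with HU210 and at 59.8, 110.5, 77.4 and 92.3 FPKM with DMSO. Its ratios were near -0.13 at 2 h and -0.14 at 6 h but -0.97 at 4 h and -1.25 at 8 h, so 2 of the 4 hours made most of the mean.

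Spns2, the exporter of sphingosine-1-phosphate, was at 1.82, 1.18, 1.02 and 0.614 FPKM with HU210 and at 2.19, 2.02, 1.62 and 1.35 FPKM with DMSO. Both groups were lower at later hours, and every pair was apart, with a mean log2 ratio of -0.39 ± 0.16 (SD, n = 4 pairs). Spns2 shares 131 of 4124 exon bases with Mybbp1a on the opposite strand, which was at 134 to 158 FPKM. Cdc26, a subunit of the anaphase-promoting complex, had ratios of -0.24, -0.28, -0.51 and -0.28. Nol7, a nucleolar protein, had ratios of -0.17, -0.40, -0.19 and -0.41.

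Among transcription factors, Irf5, known from interferon responses, had ratios of -0.40, -0.76, -1.01 and -0.01, so that its libraries hardly differed at 8 h. Irf5 shares 411 of 2903 exon bases with Tnpo3 on the opposite strand, which was at 58.0 to 72.8 FPKM. Zbtb4, which binds methylated DNA, had -0.16, -0.49, -0.28 and -0.17. Zc3h6, a zinc finger gene, had -0.27, -0.26, -1.23 and -0.59 with groups that did not overlap. Nebl, an actin-binding protein of the nebulin family, had a mean log2 ratio of -0.30 ± 0.17, and 1700001P01Rik had one of -0.27 ± 0.06 (SD, n = 4 pairs). Rpl22-ps1, at 203 to 475 FPKM, is a pseudogene of a ribosomal protein gene whose reads may be those of the parent gene, and its mean ratio of -0.36 is uncertain for that reason.

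The remaining genes with the lowest mean ratios each rested on 1 hour. Gca, a calcium-binding protein gene, had ratios of -0.15, -0.53, -0.09 and -1.72. Cdkl2, a kinase gene, had ratios of -0.34, -1.37, -0.05 and -0.32. Its DMSO library of 4 h was at 5.42 FPKM, while the other 7 libraries were between 1.02 and 1.68 FPKM.

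Bricd5 was called only when the 4 h pair was left out, and it is named because of that call. This gene of a BRICHOS-domain protein was at 2.48, 0.202, 2.35 and 1.83 FPKM with HU210 and at 0.0632, 3.24 and 0.137 FPKM with DMSO at 2 h, 4 h and 6 h, and it was listed at 0 with DMSO at 8 h. HU210 was the higher library at 2 h, 6 h and 8 h and the lower one at 4 h. With all pairs its mean log2 ratio was 0.74 ± 1.71 (SD, n = 4 pairs) and the adjusted p was 1. Without 4 h the mean was 1.59 and the adjusted p was 0.0442 in the paired limma fit (0.0442 to 1 over the alternatives). All 997 exon bases of Bricd5 lie within exons of Mlst8 on the opposite strand, at 4.88 to 7.43 FPKM.

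The list for the route from CB1R to Stat3 also holds Creb1 and Brca1, which are not steps of the route described above. Of its 25 tested members, 3 kept above 0 and 3 kept below (12% each). Over all genes tested these shares were 4.5% and 3.43%. None of the 25 passed the test. Among the higher ones were Rap1gap, which switches Rap1 off, and the kinase gene Src, with mean log2 ratios of 0.17 and 0.11. Src was at 5.55, 5.77, 5.96 and 5.49 FPKM with HU210 and at 5.32, 4.68, 5.35 and 5.40 FPKM with DMSO, and all its HU210 libraries lay above all its DMSO libraries. Once the GC and length trend was taken out, the mean for Src was 0.04, and without 4 h it was 0.07. The lower ones were the G protein gene Gnao1, the transcription factor gene Creb1 and the DNA repair gene Brca1, with mean ratios of -0.06, -0.27 and -0.12. Creb1 was at 14.6, 14.1, 12.4 and 12.2 FPKM with HU210 and at 15.3, 20.2, 12.6 and 18.0 FPKM with DMSO, the gap being wide at 4 h and 8 h. Stat3 itself was above 0 at the early hours and below 0 at the late ones (0.06, 0.17, -0.36 and -0.23).

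Ralb, a Ral GTPase gene, was at 23.9, 21.7, 16.6 and 17.3 FPKM with HU210 and at 14.3, 13.0, 16.6 and 17.1 FPKM with DMSO, so the libraries were apart at 2 h and 4 h only. Rap1b, a Rap GTPase gene, was lower at 2 h and 4 h (ratios of -0.22 and -0.93) and higher at 6 h and 8 h (0.49 and 0.25). The median of the whole list was -0.10, -0.19, 0.18 and 0.05 over the hours, beside -0.05, -0.08, 0.06 and 0.04 over all genes. Its mean ratio had a median of -0.02.

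Immediate-early genes had the highest median of the mean ratio among the 17 lists, 0.12 beside -0.00334 over all genes. Only Fos and Jun of 28 members kept above 0 (7.14%, beside 4.5% of all genes) and none kept below. By hour, the median of this list was 0.22, 0.04, -0.00386 and 0.23. Above 0 were 22, 17, 14 and 27 of the 28 members. The median remained above 0 when any hour was left out and when the pairs were centred, between 0.06 and 0.16. No member passed the test, and 1, Ier3, had an unadjusted p under 0.05.

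Fos, a subunit of the AP-1 transcription factor, was at 2.70, 1.88, 1.83 and 1.83 FPKM with HU210 and at 1.80, 1.42, 1.79 and 1.54 FPKM with DMSO. All HU210 libraries lay above all DMSO libraries, and the gap was widest at 2 h and close to 0 at 6 h. Its mean log2 ratio was 0.21 ± 0.16 (SD, n = 4 pairs; 95% interval -0.0042 to 0.42). Jun, its partner, had ratios of 0.12, 0.04, 0.00218 and 0.30. At 6 h the ratios of Fos and Jun lay below the median of all genes (0.06), so with centred pairs neither kept above 0.

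The Egr genes and Nab2, the corepressor that binds Egr proteins, were higher at 3 hours and lower at 6 h. Egr1 was at 36.8, 24.3, 19.2 and 32.2 FPKM with HU210 and at 18.3, 18.8, 27.0 and 18.9 FPKM with DMSO. The DMSO library of 6 h was the highest of its group for Egr1 and the HU210 library of 6 h the lowest of its group. Egr3 had ratios of 1.05, 0.52, -0.62 and 0.48, and Nab2 had ratios of 0.88, 0.91, -0.44 and 0.43. Nab2 shares 1050 of 2941 exon bases with Gm16229, an unlisted gene on the opposite strand. Ier3, an early gene linked to cell survival, followed the same order with 0.40, 0.35, -0.08 and 0.56, and its mean of 0.31 had a 95% interval of 0.02 to 0.60.

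None of the 14 ERK feedback genes kept one direction, beside 7.93% of all genes tested. These genes encode phosphatases and Sprouty proteins that dampen ERK signalling. Their median ratio was 0.19, -0.06, -0.03 and 0.26. At 8 h 13 of the 14 were above 0 and at 2 h 10 were. Dusp6, an ERK phosphatase, was at 74.7, 69.0, 66.5 and 76.8 FPKM with HU210 and at 47.5, 51.5, 74.8 and 58.6 FPKM with DMSO, again with the DMSO library highest at 6 h.

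In the spliceosome core, 7 of 61 genes kept above 0 (11.5%, beside 4.5% of all genes tested) and 2 kept below (3.28%, beside 3.43%). None passed the test, and 9 genes of one direction are 14.8% of the list, beside 7.93% of all genes. Of all 509 higher genes tested, only 216 kept above 0 with centred pairs. How many members of each list did so was not counted. The higher ones were Lsm2, Prpf38a, Sf3b4, Snrnp48, Snrpa, Snrpb and U2af2, and the lower ones were the helicase gene Snrnp200 and Sf3b3. Sf3b4, a subunit that binds pre-mRNA near the branch site, was at 25.6, 24.6, 24.2 and 23.0 FPKM with HU210 and at 23.9, 22.5, 22.9 and 21.2 FPKM with DMSO. Its mean log2 ratio was 0.10 ± 0.02 (SD, n = 4 pairs), and 0.06 once the GC and length trend was taken out. The list as a whole had a median of 0.00880.

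Of 79 nuclear genes of oxidative phosphorylation 5 kept above 0 (6.33%) and 3 kept below (3.8%), 10.1% in all. Over all genes tested these shares were 4.5%, 3.43% and 7.93%. Cox8a, a subunit of cytochrome c oxidase, was at 357, 286, 312 and 257 FPKM with HU210 and at 330, 239, 285 and 229.7 FPKM with DMSO, with a mean log2 ratio of 0.17 ± 0.06 (SD, n = 4 pairs). Cox5b, Cox6a1, Atp5c1 and Ndufa13 had means between 0.06 and 0.13. The electron carrier gene Cycs was the lowest of the 3 lower ones, with a mean of -0.19, next to Ndufb5 (-0.14) and Ndufs4 (-0.11). Without 4 h the mean for Cycs was -0.08.

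Among 75 cytosolic ribosomal protein genes, Rpl29 and Rpl9 kept above 0 and Rps4x and Rps9 below (2.67% each). Over all genes tested, 4.5% kept above 0 and 3.43% below. Of 46 proteasome genes 2 kept below 0 (4.35%) and none above. These were Psmc1 and Psmd10, the latter at 19.4, 21.1, 21.0 and 23.9 FPKM with HU210 and 21.9, 30.9, 21.5 and 27.7 FPKM with DMSO. In DNA replication, 3 of 46 genes kept below 0 (Pole, Rpa2 and Lig1, 6.52%) and 1 above (Mcm2, 2.17%). Of 39 mitosis genes only Ect2, which starts cytokinesis, kept below (2.56%).

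In growth cone and neurite cytoskeleton, 2 of 31 genes kept above 0 (6.45%, beside 4.5% of all genes tested) and none below. These were Pfn1, an actin-binding profilin, and Dbn1, the gene of drebrin. Pfn1 was at 464, 399, 444 and 368 FPKM with HU210 and at 413, 311, 429 and 315 FPKM with DMSO, with overlapping groups and a mean log2 ratio of 0.20 ± 0.13 (SD, n = 4 pairs). None of 46 SNARE and Sec1/Munc18 genes kept one direction, beside 7.93% of all genes tested. The Atf4 targets Psph and Slc3a2, which act in serine synthesis and amino acid transport, kept above 0 with mean log2 ratios of 0.17 and 0.04, out of 36 genes (5.56%). Without 4 h the mean for Psph was 0.08. Once the GC and length trend was taken out, the mean was 0.02 for Slc3a2 and 0.03 for Dbn1 (0.10 before). In each of 3 further lists, 1 gene kept above 0 and none below. These were the hypoxia-inducible Bnip3 of 36 genes (2.78%, mean 0.16) and the heat shock protein gene Hspb8 of 31 (3.23%, mean 0.07). The other was Eif4ebp1 of 24 FoxO and starvation genes (4.17%, mean 0.10).

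**Figure D4:**
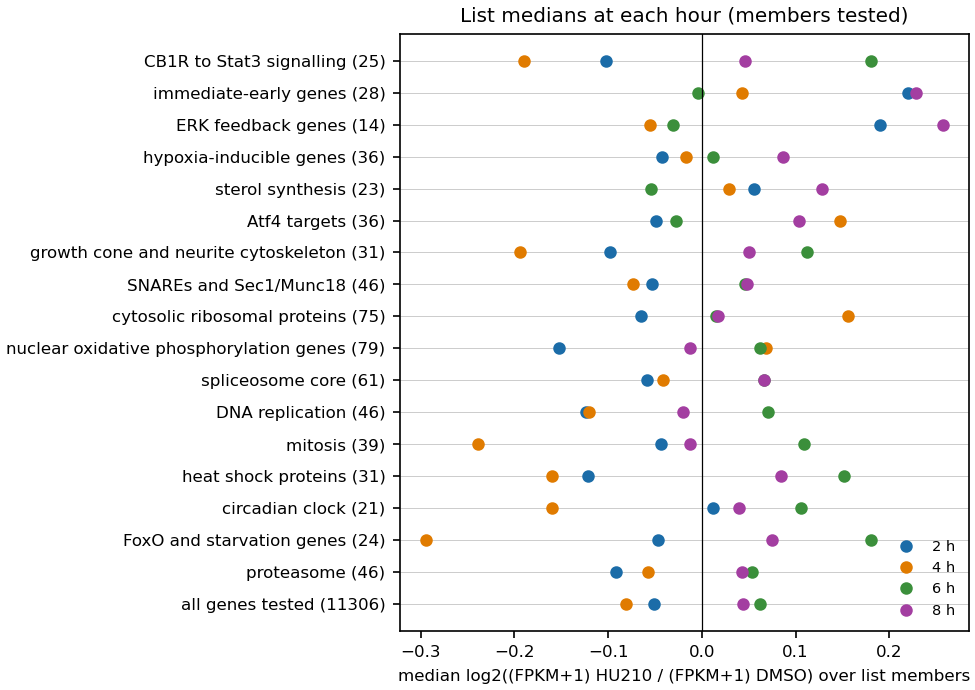
Median log2 ratio of HU210 to DMSO over the tested members (number in brackets) of each of 17 gene lists and of all genes tested, with 1 point per hour. The medians of the immediate-early genes lie at 0.22 at 2 h and 0.23 at 8 h, above the medians of all genes at those hours (-0.05 and 0.04).

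Genes of one direction differed in base composition. The median GC content of the exons was 54.4% for the genes higher at every hour, 48.4% for the lower ones and 50.02% for all genes tested. Across genes, the ratio had a Spearman correlation with GC content of 0.15, 0.50, -0.27 and -0.14. After a trend on GC content and exon length was taken out of each pair, 455 genes kept above 0 and 422 below, among them 229 of the 509 higher and 233 of the 388 lower genes. The median exon length was 2927 bases for the higher, 4058 for the lower and 3539 for all genes. At 1 to 5, 5 to 20, 20 to 100 and at least 100 FPKM, 4.86%, 4.11%, 4.87% and 3.87% of genes kept above 0. The share that kept below 0 fell with level, with 4.34%, 3.3%, 3% and 2.87%.

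**Figure D5:**
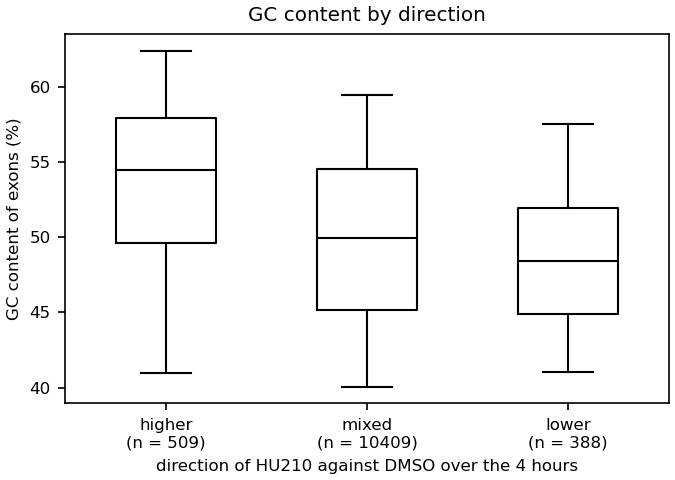
GC content of the exons in percent (vertical axis) for genes higher at every hour, of mixed direction and lower at every hour; the line is the median, the box the quartiles and the whiskers the 5th and 95th percentiles. The medians are 54.4% for the higher and 48.4% for the lower genes.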

How the data were processed

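Messenger RNA of N2A cells was sequenced as 1 library for each of 2 treatments and 4 hours. Per the labels and the paper's methods, the authors mapped reads to mm9 with Bowtie2 2.1.0, TopHat2 2.0.8 and SAMtools 0.1.7 and computed FPKM with Cufflinks and Cuffdiff (versions not given in the sources used here), corrected for reads with several matches and for biased fragments and scaled to the upper quartile. The authors deposited FPKM with 1 added, and 1 was subtracted here. The authors' fold changes, p-values and lists of DEGs were not used. The values show no steps of whole reads, so the depth per gene is unknown.

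For genes listed at all hours with a mean of at least 1 FPKM, log2(FPKM + 1) was fitted with limma 3.58.1 (R 4.3.3) with terms for hour and treatment, a trended and robust prior, two-sided tests and Benjamini-Hochberg adjustment over all 11306 genes. Intervals are 95% intervals of single genes from this fit. They were not adjusted for the 11306 genes tested or for the choice of genes by their values. For genes named because of their values, the coverage need not be 95%, and an interval without 0 is no call. The replicate number marks an hour. Deviations of the HU210 and DMSO libraries of an hour from their group means had correlations of 0.44, -0.39, 0.07 and 0.27 across genes. No label says that the hours are separate cultures. The paper's methods give 8 dishes per experiment, the number of conditions, so all libraries may pool the same 2 to 3 experiments. The 4 pairs may then not be independent repeats of the treatment. The p-values set the mean ratio against its spread between hours. That spread holds change of the effect over time and differences between libraries alike. The script was tested on simulated data. Named genes keep one direction and have the 12 largest statistics or the 6 largest mean ratios each way, or are at least 1.3-fold apart at every hour, and small RNAs and unnamed models (70 genes of one direction) were left out of the first 2 sets. Cnr1, list members and Bricd5 were added, and which list members appear was chosen after their values were seen. A few genes covered by these rules are not reported here. Gene lists, markers and the set of genes were chosen with earlier results of these data known. Positions, exon lengths and GC content came from GENCODE vM1 on mm9. Symbols follow RefSeq where an ID matched. Alternatives were a pseudocount of 0.1, no filter or a mean of 5 FPKM, centred pairs, a loess trend on GC content and length removed (span 0.3), each hour left out, no block, a plain prior and, added after the data were seen, protein-coding genes only. Computations used Python 3.11.15 and pandas 2.3.3.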

Additional observations from a re-analysis of the deposited data

Results flagged for a closer look

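In 5 of the 85 named genes (5.88%), the ratio of 1 hour stood far from the other 3, and each time this was 4 h. The log2 ratio at 4 h was -1.94 for Snora17, -1.82 for Bricd5, 0.42 for Bnip3, 0.35 for Rpl9 and 0.54 for Lsm2. Chance gives such a gap in about 1 of 20 groups of 4 values of equal spread, which the hours did not have. Over all genes tested, 684 (6.05%) had such a gap, and for 461 of these the far ratio was that of 4 h. The 4 h pair also had the widest spread over all genes (SD 0.40) and the strongest correlation with GC content (0.50).

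In 3 lists, the medians lay below 0 at 2 h and 4 h and above 0 at 6 h and 8 h, also relative to the median of all genes. At 8 h that lead was only 0.00199 for the route from CB1R to Stat3 and 0.00632 for growth cone and neurite cytoskeleton. For heat shock proteins it was 0.04. The mean of the early medians minus the mean of the late ones was -0.26 for the route from CB1R to Stat3, -0.23 for growth cone and neurite cytoskeleton and -0.26 for heat shock proteins. Over all genes tested the same difference was -0.12, and among the 17 lists it reached -0.30 for FoxO and starvation genes, whose 2 h median did not lie below that of all genes. The division into early and late hours was chosen after the data were seen, and these differences were not tested.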

How the results depend on the processing

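No gene was called under any alternative, except Bricd5 without 4 h (mean log2 ratio 1.59, adjusted p = 0.0442 in limma). At a mean of at least 5 FPKM, where fewer genes were tested, 84 had an unadjusted p under 0.05. Without the filter 538 of 15888 genes did, beside 148 of 11306 in the main fit. The number was 92 without the replicate block, 146 with a plain prior, and 80 to 402 with 1 hour left out. With 1 hour left out, 806 to 1517 genes kept above 0 and 544 to 1608 below, since 3 signs are easier to share than 4: without 2 h these were 1109 and 544, without 4 h 1517 and 1019, without 6 h 1364 and 1608, and without 8 h 806 and 795. Past 1.3-fold at every hour were 0 higher and 1 lower gene at 5 FPKM or more, 3 and 5 with a pseudocount of 0.1, 0 lower among protein-coding genes, 2 lower once the GC and length trend was taken out, and 1 to 12 higher and 4 to 12 lower with 1 hour left out. Among genes of mixed direction, the mean ratio turned for Cnr1 and Rap1b without 4 h and for Stat3 without 6 h. With 1 hour left out it ran from -0.31 to 0.0191 for Cnr1, from -0.30 to 0.17 for Rap1b and from -0.17 to 0.00210 for Stat3. In the check of the pairing, the HU210 libraries of 2 h and 8 h correlated best with the DMSO library of their own hour (0.44 and 0.27), those of 4 h and 6 h with the DMSO libraries of 8 h (0.38) and 4 h (0.31). The other named values kept their sign, but 12 of 85 moved by over 1.5 times once the GC and length trend was taken out, 11 with a pseudocount of 0.1 and 7 to 24 with 1 hour left out. Medians of 11 of the 17 lists changed sign under at least 1 alternative, and those of the immediate-early and ERK feedback genes did not. Counts of reads per gene were not used here, and 1 library per condition gives no error for a single hour.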
